A study of Mus musculus with 2 samples.

Results

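L1Md_A, a feature named for the A subfamily of mouse LINE-1 retrotransposons, was 1 of the 19073 features counted in hepatocytes of CCl4-treated p16-Tom mice. It was 1 of 3 custom features at the end of the feature list, beside tdTomato and a separate p16 entry, and it was taken by that name in both libraries. The labels and methods describe custom probes only for tdTomato. Which LINE-1 sequence was targeted, and by how many probes, is not given in the sources used here, so no probe sequence and no position are printed for this dispersed element. LINE-1 elements are autonomous retrotransposons present in very many copies. A full-length copy is transcribed from its own promoter and encodes an RNA-binding protein and a protein with endonuclease and reverse transcriptase activity. Most copies are truncated. Some copies lie inside introns or untranslated regions of other genes, so their sequence is also carried in the transcripts of these host genes. Expression of LINE-1 is restrained by DNA methylation and heterochromatin, and its derepression is known in senescent and aged tissue.

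The p16-Tom mouse carries p16-CreERT2 and the R26-CAG-LSL-tdTomato-WPRE reporter. Tamoxifen therefore turns on tdTomato permanently in any cell type that transcribes p16 at that time. Male heterozygous p16-Tom mice on the C57BL/6 background were given CCl4, a hepatotoxin that injures the pericentral liver, for 4 weeks, and tamoxifen. Livers were fixed before dissociation, and cells positive for Hoechst and the MitoBrilliant dye were sorted into a Tom- (p16low) and a Tom+ (p16high) fraction. Each fraction gave 1 library, so each group had 1 sample. Differences between Tom- and Tom+ below are between these libraries, and most other differences are within a library. No test between groups was possible, and no p-value is given. Both groups received CCl4 and tamoxifen. The age and number of the mice are not given in the sources used here, and the cells carry no animal label.

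The Tom- library held 681279005 UMIs (unique molecular identifiers, 1 per captured ligated probe pair) in 23220 barcodes and the Tom+ library 715333889 UMIs in 16339 barcodes. The libraries shared 503 barcodes. The filters of the study left 20159 Tom- and 13378 Tom+ cells, with medians of 26694 and 36075 UMIs. Outside clusters with few genes or with markers of other liver cells there were 10547 Tom- and 9779 Tom+ hepatocytes. The label of hepatocyte held for RNA content in all classes of cells: 8 hepatocyte markers, led by Alb, took from 138449 to 186255 CPM in every class and library, non-parenchymal classes included. tdTomato was at 73.2 CPM in Tom- and 813 CPM in Tom+ hepatocytes. CPM is the part that a feature takes of all UMIs of the summed cells, scaled to the customary common total. Intervals are exact, at 95%, and cover counting error only. For the separate p16 entry 152 UMIs were counted in hepatocytes of the Tom- library (0.404 CPM) and 181 in those of the Tom+ library (0.467 CPM).

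L1Md_A was among the features that took most UMIs. In hepatocytes its share was 2994 CPM (2988 to 3000) in the Tom- library, from 1126299 UMIs, and 3457 CPM (3452 to 3463) in the Tom+ library, from 1340002 UMIs. By UMIs it ranked 24 of 19073 features in Tom- and 21 of 19073 in Tom+ hepatocytes. A rank by UMIs is not a rank by RNA level, since the number of probes and of targeted copies differs between features. No kept cell was without it. The UMIs of L1Md_A per hepatocyte ran from 4 to 449 in Tom- and from 6 to 582 in Tom+, with medians of 94 and 119. Barcodes under 2000 genes, which the filters remove, held higher shares: 4020 CPM over 2663 Tom- barcodes and 4803 CPM over 1682 Tom+ barcodes. Barcodes over 100000 UMIs held lower shares, at 2337 CPM in 360 Tom- and 2636 CPM in 1239 Tom+ barcodes.

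L1Md_A varied widely from cell to cell. In Tom- hepatocytes the lowest 5% of cells were under 1655 CPM, the median was 2984 CPM and the highest 5% were over 6184 CPM. The same points in Tom+ hepatocytes were 2050, 3468 and 6476 CPM. The distributions overlapped over most of their range. The quartiles of Tom- cells were 2307 and 4008 CPM, and those of Tom+ cells 2785 and 4388 CPM. Cells of 20000 to 40000 UMIs showed nearly the same spread, with medians of 3043 CPM in 4849 Tom- and 3596 CPM in 3820 Tom+ hepatocytes. Once counting noise was taken off, its coefficient of variation over hepatocytes came to 34.9% (Tom-) and 31.2% (Tom+). Among the 200 features nearest to it in level, the median was 24.0% in Tom- and 27.8% in Tom+, and 75% and 58.5% of them varied less. Alb, the serum albumin gene, varied by 22.4% and 27.8%. L1Md_A was thus more variable than most features of its level in the Tom- library and near the middle in the Tom+ library.

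L1Md_A varied more with depth than with lobule position, cycle or interferon content. Hepatocytes of both libraries were divided together into quintiles by their UMIs other than L1Md_A. From the shallowest to the deepest quintile the share fell in Tom- from 4497 to 3593, 3062, 2752 and 2456 CPM. In Tom+ it fell from 4730 to 4115, 3658, 3375 and 3064 CPM. Every step was downward in both libraries, and at each depth Tom+ was above Tom-. Median UMIs of the outer quintiles were 15086 and 65880 in Tom- and 14702 and 68774 in Tom+.

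The number of L1Md_A UMIs per cell still rose with depth. The mean went from 64.4 to 168 UMIs in Tom- and from 65.6 to 218 UMIs in Tom+. Mean total UMIs rose 4.77-fold between the outer quintiles of Tom- while L1Md_A rose 2.61-fold. In Tom+ these were 5.14-fold and 3.33-fold. L1Md_A therefore grew as depth to the power of 0.613 in Tom- and 0.735 in Tom+ between these ends. Over single cells, Spearman's rho of share and depth was -0.51 in 10547 Tom- and -0.41 in 9779 Tom+ hepatocytes. Both measures rest on the UMI total of the same cell.

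Other features fell with depth too, but fewer fell as far. On the log2 scale the deepest over the shallowest quintile was -0.87 (-0.88 to -0.86) for L1Md_A and -0.23 for the median feature in Tom-. In Tom+ it was -0.63 (-0.64 to -0.62) and -0.19. With the clusters of few genes added, L1Md_A was at -0.51 in Tom- and -0.63 in Tom+. Relative to the median feature L1Md_A was lower by a log2 ratio of -0.64 in Tom- and -0.44 in Tom+. Of the features tested, at 10 CPM or more in either sum, 8.31% in Tom- and 4.95% in Tom+ fell further. Past 1.25-fold, 41.6% of Tom- and 30.4% of Tom+ features were lower in the deepest quintile, and 6.45% and 1.22% were higher.

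**Figure D1:**
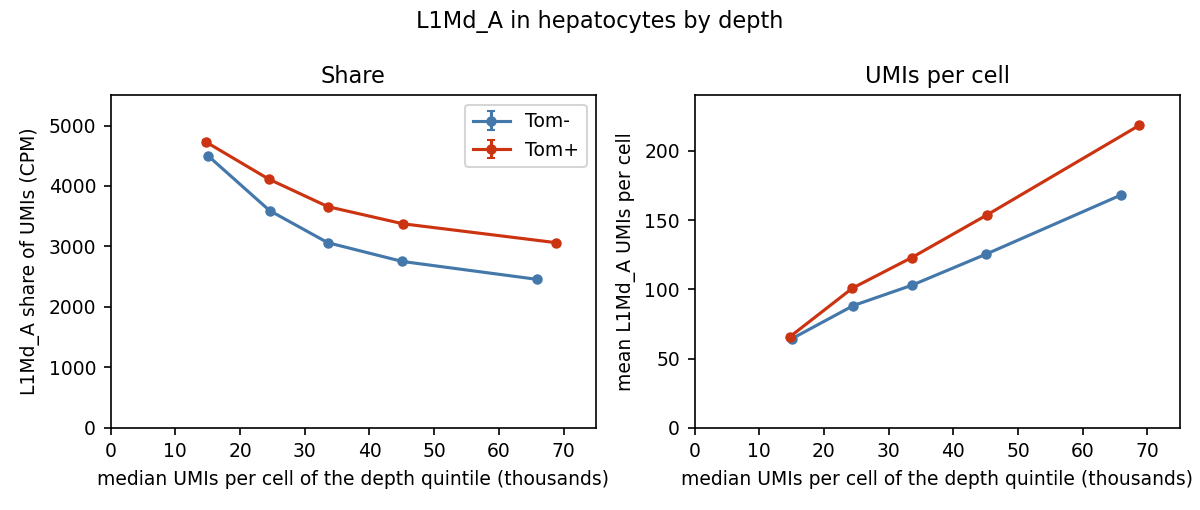
L1Md_A in hepatocytes by depth quintile of the Tom- and Tom+ libraries: share in CPM and mean UMIs per cell, against the median UMIs per cell of the quintile on a linear axis. The share falls from 4497 to 2456 CPM in Tom- and from 4730 to 3064 CPM in Tom+ while UMIs per cell rise.

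Lobule position was scored next, from 9 pericentral (zone 3) and 9 periportal (zone 1) markers, and hepatocytes of both libraries were divided together into quintiles from portal to central. The score put the markers in order: from the most periportal to the most pericentral quintile, Glul, the glutamine synthetase of the central vein rim, went from 4.63 to 352 CPM and Cyp2e1, which converts CCl4 to its toxic radical, from 206 to 3931 CPM. Sds, periportal serine dehydratase, went from 2517 to 157 CPM and Cyp2f2 from 377 to 20.9 CPM. These are markers behind the score and show that it worked as built. The most periportal quintile held 3267 Tom- and 799 Tom+ cells, and the most pericentral held 1035 Tom- and 3030 Tom+ cells.

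L1Md_A was higher toward the central vein in both libraries, and the gradient was steeper in Tom+. In Tom- the share was 2836, 3008, 3072, 3024 and 3263 CPM from portal to central. In Tom+ it was 2990, 3125, 3342, 3519 and 3799 CPM. The Tom+ series rose at every step, while the Tom- series had 1 step down, from the third to the fourth quintile. Central over portal, the log2 ratio was 0.20 (0.19 to 0.21) in Tom- and 0.35 (0.34 to 0.36) in Tom+. The median feature was also higher centrally, by 0.15 in Tom- and 0.21 in Tom+, so that relative to it L1Md_A was higher by 0.05 and 0.14. Of the features tested, 58.1% in Tom- and 70.9% in Tom+ had a lower ratio. Past 1.25-fold, 25.7% of features in Tom- and 32.0% in Tom+ were higher centrally, and 9.41% and 8.8% were lower. The gradient of L1Md_A in Tom- was close to that of the median feature.

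Depth and position were then crossed. In the shallowest depth tercile the Tom- share was 3882, 4065, 4350, 4078 and 4109 CPM from portal to central, and the Tom+ share was 4360, 4360, 4466, 4410 and 4567 CPM. In the middle tercile it was 2955, 3039, 3163, 3059 and 3272 CPM in Tom- and 3224, 3324, 3551, 3601 and 3977 CPM in Tom+. In the deepest tercile it was 2386, 2572, 2625, 2667 and 2756 CPM in Tom- and 2667, 2725, 3054, 3260 and 3514 CPM in Tom+. In CPM, depth moved the share more than position in every combination of position and library. As a ratio this held except in Tom+, where the rise from 2667 to 3514 CPM with position among deep cells was slightly larger than the fall from 4567 to 3514 CPM with depth in the most pericentral quintile. The rise toward the central vein in Tom+ was largest among deep cells, where it went from 2667 to 3514 CPM, and smallest among shallow cells, where it went from 4360 to 4567 CPM.

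**Figure D2:**
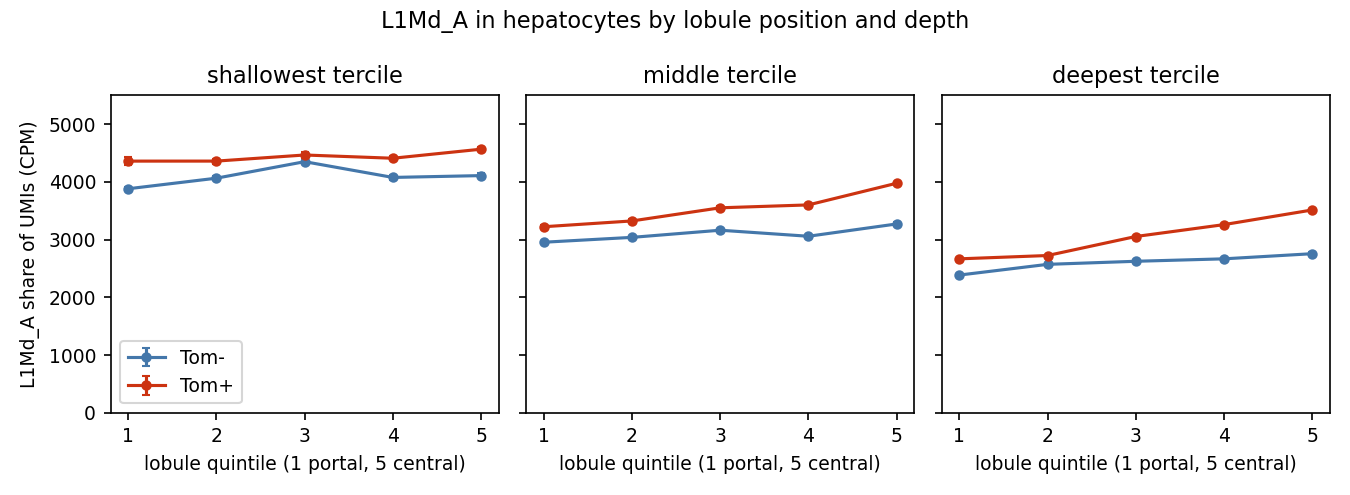
L1Md_A share (CPM) by lobule quintile, from periportal to pericentral, in 3 depth terciles of the Tom- and Tom+ libraries, with exact 95% Poisson intervals. Tom+ is above Tom- in all 15 combinations, and the lines separate most in the deepest pericentral cells, at 3514 against 2756 CPM.

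The comparison of the sorted fractions asks whether hepatocytes that had expressed p16 differ in LINE-1 signal. Over all hepatocytes the share was 1.15-fold higher in Tom+, a log2 ratio of 0.21 (0.20 to 0.21). The median feature differed by 0.04, and 83.5% of 7831 features tested had a lower ratio. Past 1.25-fold, a size that L1Md_A did not reach, 7.15% of features were higher and 2.21% lower in Tom+. Matched on lobule and depth, with equal weight for each of 15 combinations, the log2 ratio was 0.17. All 15 combinations were higher in Tom+, from 0.04 to 0.35, with a median of 0.16. In the most pericentral quintile the ratio was 0.15, 0.28 and 0.35 from shallow to deep, and in the most periportal quintile 0.17, 0.13 and 0.16. Matched on mitochondrial fraction and depth instead, all 15 combinations were higher in Tom+, from 0.19 to 0.41. With 1 library per fraction, the sort, the mice and the library preparation cannot be told apart, and 15 combinations of 1 pair of libraries are not 15 replicates.

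Within clusters of hepatocytes the difference was less uniform. Cells had been clustered without the custom features, and 5 of 7 hepatocyte clusters had the higher share in Tom+, with log2 ratios from -0.05 to 0.21. Over all 16 clusters with at least 50 cells in each library, 12 were higher in Tom+, from -0.23 to 0.28. The hepatocyte clusters fell into a higher and a lower set, and the sets did not overlap in either library. Cluster 1, led by Sult2a2 and Nr1i3, held 4112 CPM in Tom- and 3973 CPM in Tom+. Cluster 2, with the periportal gene Sds among its leading genes, held 4168 and 4117 CPM. Clusters 11 and 15, with Glul among theirs, held 3868 and 3942 CPM in Tom- and 4196 and 4036 CPM in Tom+.

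The lower set comprised cluster 3, led by Hamp, the iron hormone hepcidin, at 2461 and 2846 CPM, periportal cluster 13 at 2288 and 2441 CPM, and pericentral cluster 14 at 2759 and 3125 CPM. Median UMIs ran from 23829 to 32957 in the higher set and from 34210 to 50333 in the lower set. High and low clusters were thus found at both ends of the lobule, and they differed in depth. Cluster 11 held 53 Tom- and 1555 Tom+ cells. Without it the ratio over all hepatocytes was 0.15 instead of 0.21.

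The mitochondrial fraction moved with L1Md_A at every depth. It was the sum of 13 mitochondrial features over all UMIs of a cell, and its rho with depth was -0.02 in Tom- and 0.01 in Tom+. From the lowest to the highest quintile of mitochondrial fraction the L1Md_A share was 3757, 2919, 2658, 2605 and 2529 CPM in Tom-. In Tom+ it was 4648, 3693, 3327, 3205 and 3120 CPM. The largest step in both libraries was between the lowest and the second quintile. The log2 ratio of highest over lowest was -0.57 (-0.58 to -0.56) in Tom- and -0.57 (-0.58 to -0.57) in Tom+, beside -0.15 for the median feature in each library. Of the features tested, 3.41% in Tom- and 4.68% in Tom+ fell further. Past 1.25-fold, 25.7% of Tom- and 26.4% of Tom+ features were lower in the highest quintile, and 3.74% and 4.02% were higher. Within the shallowest depth tercile the share went from 5437 to 3076 CPM in Tom- and from 6221 to 3690 CPM in Tom+ between the outer mitochondrial quintiles. Within the deepest it went from 2944 to 2285 CPM and from 3845 to 2930 CPM. The highest shares of L1Md_A were thus in shallow cells with few mitochondrial UMIs. Both shares have the same denominator, and what they have in common was not tested.

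Features that went with L1Md_A from cell to cell were described by splitting hepatocytes into terciles of the L1Md_A share within each of 30 combinations of lobule quintile, depth tercile and library. The split used L1Md_A, so its own difference, 4472 against 2248 CPM, is no finding. The L1-high cells held from 0.781 to 0.986 times the UMIs of the L1-low cells. Among 5899 features at 20 CPM or more the median log2 ratio of L1-high over L1-low was 0.20, with 37.0% higher and 3.15% lower past 1.25-fold. The ratios that follow are read beside that median.

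The highest ratio was 1.16 (SD 0.27 over the 30 combinations) for Nr1i3, the nuclear receptor CAR of drug metabolism, at 211 CPM in L1-high and 102 CPM in L1-low cells. Mlxipl, the carbohydrate-response transcription factor ChREBP, followed the same pattern at 1695 against 884 CPM (log2 0.99, SD 0.18). Gckr, the regulator of glucokinase, was at 429 against 230 CPM (0.94, SD 0.22). Dpyd, which begins the breakdown of pyrimidines, was at 552 against 286 CPM (0.97, SD 0.22). These are hepatocyte genes of metabolism and its control. Others among the 15 highest act more generally: Ccnl2, a cyclin tied to RNA splicing, at 0.93, Ern1, a sensor of unfolded proteins, at 0.92, Ip6k2, an inositol phosphate kinase, at 0.91, and Polr2a, the largest subunit of RNA polymerase II, at 0.90. All 15 were higher in L1-high cells in 30 of 30 combinations. They were chosen by their mean over these same combinations, so this count is no separate support.

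At the other end, 8 of the 15 lowest features were mitochondrial transcripts. mt-Nd1, a subunit of respiratory complex I, was lowest, at 366 CPM in L1-high and 683 CPM in L1-low cells (log2 -0.97, SD 0.39). mt-Cytb, of complex III, was at 472 against 769 CPM (-0.80, SD 0.27). Of 13 mitochondrial features 10 were lower past 1.25-fold, with a median of -0.58. The other 7 included the acute-phase serum amyloid genes Saa1 (-0.69, SD 0.42), Saa2 (-0.70, SD 0.61) and Saa3 (-0.61, SD 0.81), the interferon-induced chemokine Cxcl9 (-0.67, SD 1.11), the lipid desaturase Scd1 (-0.58, SD 0.24) and Pigr (-0.55, SD 0.16), the receptor that carries antibodies across epithelia. tdTomato differed by 0.04 (SD 0.35) and was higher in 15 of 30 combinations. That mean joins opposite signs, 0.28 over the Tom- combinations and -0.21 over those of Tom+. The separate p16 entry differed by 0.90 (SD 1.08) and was higher in 23 of 30, at a level of 0.436 CPM that leaves few UMIs per combination.

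Likeness was then measured over summed cells. Over 30 sums of hepatocytes by position, depth and library, the features with the highest Pearson correlation with L1Md_A on the log2 scale were Ip6k2, Gigyf1, Luc7l2, Tbce and Faf1, each at 0.98. Luc7l2 is a splicing factor and Tbce a tubulin-folding cofactor. The lowest were Cst3 (-0.97), the protease inhibitor cystatin C, Gc (-0.96), the vitamin D-binding protein, Ambp (-0.96), Atp5e (-0.96), of the ATP synthase, and Eif4b (-0.95). L1Md_A itself had r = -0.88 with log2 depth over these sums, so the points share depth. Over 32 sums by cluster and library, where r with depth was 0.17, the highest were Zfp292, Clk3, Pan2, Scaf4 and Fam193a, each at 0.97. Clk3 is a kinase of splicing factors and Pan2 a deadenylase. The lowest were Pink1 (-0.94), the kinase of mitochondrial quality control, Atp5f1 (-0.93), Ndufa13 (-0.90), Uqcrfs1 (-0.90) and Bag1 (-0.89). Atp5f1, Ndufa13 and Uqcrfs1 encode subunits of the respiratory chain and ATP synthase. The sums by cluster include clusters low in L1Md_A that are described below. These are the macrophage-like cluster, at 1497 CPM in Tom- and 1278 CPM in Tom+, and an endothelial-like cluster of few genes, at 1797 and 2178 CPM. Their weight in these correlations and in the r with depth was not tested. The sums share 2 libraries, and these correlations are descriptions.

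Cell-cycle content was examined with 28 cycle genes, of which a hepatocyte held a median of 3 UMIs. From the lowest to the highest quintile of their share, L1Md_A was 2937, 2816, 2831, 3011 and 3512 CPM in Tom- and 3387, 3328, 3308, 3490 and 3893 CPM in Tom+. The rise lay in the upper quintiles, after a small dip. The log2 ratio of highest over lowest was 0.26 (0.25 to 0.27) in Tom- and 0.20 (0.19 to 0.21) in Tom+, beside a median feature of 0.10 and 0.09. Of the features tested 91.3% and 88.1% had a lower ratio, while 3.44% of features in Tom- and 1.78% in Tom+ were higher past 1.25-fold, and 0.0256% and 0.329% were lower. Median UMIs of the highest quintile were 26024 in Tom- and 27067 in Tom+ and those of the lowest 28834 and 27026, while the middle quintile was deeper, at 37252 and 42030.

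A cluster led by mitotic genes went the other way. It held 94 Tom- and 81 Tom+ cells, with Hmmr, Cdc20, Tpx2 and Mki67 among its leading genes and the cycle list at 1223 CPM in Tom- and 1117 CPM in Tom+, against 97.3 and 99.6 CPM in hepatocytes. Its L1Md_A share was 2811 CPM in Tom- and 3062 CPM in Tom+, a log2 ratio to hepatocytes of -0.09 (-0.12 to -0.06) and -0.18 (-0.20 to -0.15). In Tom- the sign depended on how cells were weighted: the mean of the share over cells was 0.07 above hepatocytes, and without the 10% deepest cells the ratio was 0.03. In Tom+ these were -0.18 and -0.22. This cluster also had endothelial markers at 871 CPM in Tom- and 493 CPM in Tom+, against 63.7 and 49.3 CPM in hepatocytes, and their part in the result was not tested.

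Interferon genes were examined because reverse-transcribed LINE-1 can be sensed as foreign nucleic acid. Over 27 interferon-induced genes, with a median of 48 UMIs per Tom- and 47 per Tom+ hepatocyte, L1Md_A was highest where interferon genes were lowest. From the lowest to the highest quintile it was 3543, 3057, 2923, 2876 and 2913 CPM in Tom-. In Tom+ it was 3709, 3465, 3355, 3253 and 3411 CPM. The log2 ratio of highest over lowest was -0.28 (-0.29 to -0.27) in Tom- and -0.12 (-0.13 to -0.11) in Tom+, beside -0.06 and -0.02 for the median feature. Only 5.15% and 11.5% of features had a lower ratio, and 2.95% in Tom- and 0.483% in Tom+ were lower past 1.25-fold. In hepatocytes of 20000 to 40000 UMIs the ratios were closer, at -0.15 in Tom- and -0.12 in Tom+. The lowest quintile was also the shallowest, with median UMIs of 24305 in Tom- and 30683 in Tom+.

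A cluster led by Rsad2, Ifit3b, Ifit3 and Cxcl10 held 166 Tom- and 109 Tom+ cells, with the interferon list at 6217 and 7581 CPM against 1543 and 1382 CPM in hepatocytes. Its L1Md_A share was 2816 CPM in Tom- and 3179 CPM in Tom+, or -0.09 (-0.11 to -0.06) and -0.12 (-0.14 to -0.10) on the log2 scale against hepatocytes. The cluster had 2 of 11 leukocyte markers raised, and its macrophage list was at 342 CPM in Tom- and 309 CPM in Tom+. In hepatocytes that list was at 174 and 143 CPM. No higher L1Md_A share than in hepatocytes was measured in this cluster, and the part of these markers was not tested.

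The level of the reporter was read within each library. In Tom- hepatocytes, where tdTomato is low, L1Md_A was 2762, 2700, 2946, 3229 and 3649 CPM from the lowest to the highest quintile of the tdTomato share. In Tom+ hepatocytes it was 3279, 3493, 3511, 3541 and 3525 CPM, so that the 4 upper quintiles differed little. In the highest quintile, cut within each library, Tom- was above Tom+. The log2 ratio of highest over lowest was 0.40 (0.39 to 0.41) in Tom- and 0.10 (0.10 to 0.11) in Tom+, with the median feature at 0.12 and 0.04. Past 1.25-fold, 23.5% of Tom- and 10.2% of Tom+ features were higher, and 1.84% and 2.9% were lower. Median UMIs fell along the same quintiles from 36944 to 22964 in Tom- and from 47240 to 27826 in Tom+. When Tom+ cells were ranked within deciles of depth the ratio was -0.06, and in cells of 20000 to 40000 UMIs it was -0.18, so the sign in Tom+ depended on how depth was held.

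**Figure D3:**
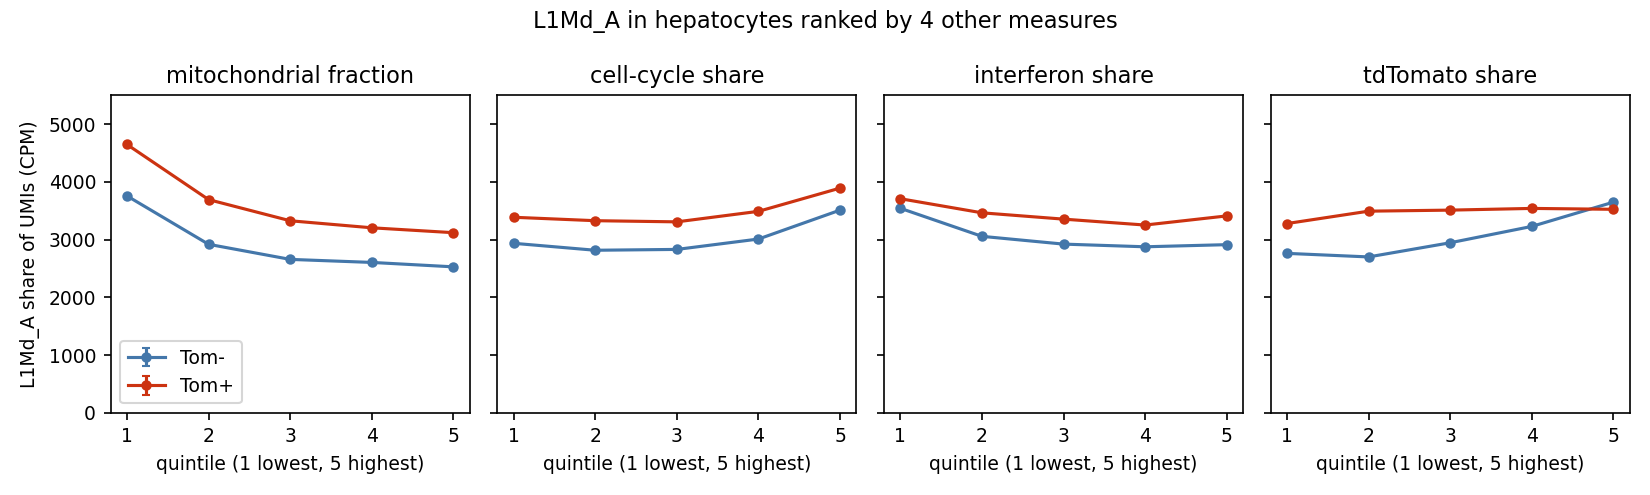
L1Md_A share (CPM) of Tom- and Tom+ hepatocytes over quintiles of mitochondrial fraction, cell-cycle share, interferon share and tdTomato share, from lowest to highest, with exact 95% Poisson intervals. The fall with mitochondrial fraction, from 3757 to 2529 CPM in Tom- and 4648 to 3120 CPM in Tom+, is the widest of the 4 panels, and the tdTomato series is nearly flat above its lowest quintile in Tom+.

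Among the named cell classes most shares lay near or below that of hepatocytes. These classes were named from markers and carried hepatocyte transcripts at the level of hepatocytes. The part that barcodes with more than 1 cell or free hepatocyte RNA have in their L1Md_A share was not tested. Leukocyte-like cells, led by the B-cell genes Ighm and Cd79a, held 3025 CPM in 80 Tom- and 3255 CPM in 51 Tom+ cells. Stellate-like cells, with Col1a1 and Col3a1, held 2757 CPM in 1069 Tom- and 3174 CPM in 727 Tom+ cells, with a log2 ratio to hepatocytes of -0.12 in each library. Their cluster also had 9 macrophage and 9 endothelial markers raised. The macrophage list summed to 1005 CPM in Tom- and 722 CPM in Tom+, against 174 and 143 CPM in hepatocytes, beside 1143 and 1038 CPM for the stellate list. Endothelial-like cells held 2588 CPM in 1814 Tom- and 2951 CPM in 1074 Tom+ cells, or -0.21 (-0.22 to -0.20) and -0.23 (-0.24 to -0.22). Past 1.25-fold, 2.4% of features in Tom- and 3.62% in Tom+ were lower in them, a size that L1Md_A did not reach.

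The endothelial-like class joined a cluster of many genes, at 2651 and 2981 CPM, with a cluster of few genes, at 1797 and 2178 CPM. Cholangiocyte-like cells, few in number, held 2771 CPM in 49 Tom- and 2825 CPM in 19 Tom+ cells. Cluster 0, with no class and few genes per cell over both libraries together, held 2910 CPM in 4205 Tom- and 2892 CPM in 383 Tom+ cells. Its median UMIs were 13529 in Tom- and 31097 in Tom+. Only its Tom- cells were poor in genes, with a median of 3833. Its Tom+ cells had 5625, near the 5836 of Tom+ hepatocytes. At a depth like that of the shallowest hepatocyte quintile, its Tom- share was below the 4497 CPM of that quintile. The cells left unnamed fell in 3 clusters. The largest, cluster 5, held 2604 CPM in Tom- and 3007 CPM in Tom+. It had 9 of 9 macrophage and 9 of 9 endothelial markers raised. Its macrophage list was at 2326 CPM in Tom- and 1637 CPM in Tom+, against 980 and 821 CPM in the class named macrophage-like. The others, each of 50 cells or fewer over both libraries, were above the sum of all hepatocytes but shallower. Cluster 7, led by the neutrophil genes S100a9 and S100a8, held 3357 and 3703 CPM. Cluster 18, led by Msln, a mesothelial gene, held 3565 and 3977 CPM. At median UMIs of 9300 and 8627, cluster 18 was below the 4497 and 4730 CPM of the shallowest hepatocyte quintile. Cluster 7 in Tom-, at 24720.5 UMIs, was below the 3593 CPM of the hepatocyte quintile at 24564 UMIs. In Tom+, at 30063 UMIs, it lay between the 4115 and 3658 CPM of the quintiles at 24410.5 and 33595 UMIs.

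Macrophage-like cells stood apart, although they were not the cells richest in macrophage markers. Their share was 1497 CPM (1478 to 1516) in 507 Tom- and 1278 CPM (1250 to 1306) in 197 Tom+ cells, with log2 ratios to hepatocytes between -1.02 and -0.98 in Tom- and between -1.47 and -1.40 in Tom+. Of the features tested, 0.941% in Tom- and 1.56% in Tom+ had a lower ratio, while 38.3% and 50.1% were lower past 1.25-fold and 3.98% and 5.58% were higher. The median cell, at 610 CPM in Tom- and 551 CPM in Tom+, was far below the sum. Over both libraries 293 of these cells were under 500 CPM, 141 lay between 500 and 1000 CPM, and 270 were at or over 1000 CPM, only 42 of them below 1500 CPM. The cluster therefore held a low group and a group nearer to hepatocytes. A limit of 1000 CPM, set after this was seen, was used to describe them.

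**Figure D4:**
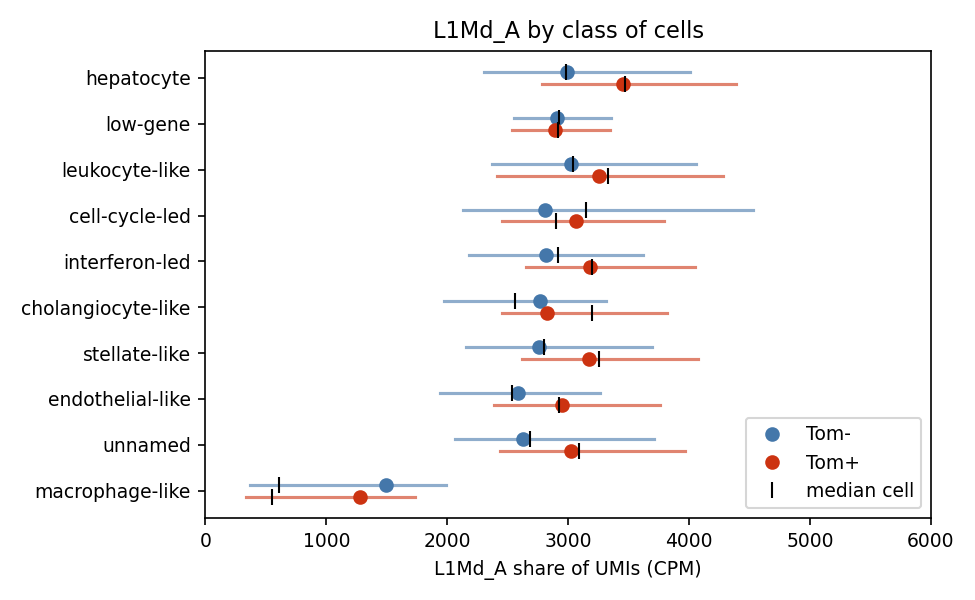
L1Md_A share (CPM) by cell class in the Tom- and Tom+ libraries, with points for the share of the summed cells, lines for the interquartile range of single cells and black ticks for the median cell. Macrophage-like cells are lowest, with medians of 610 and 551 CPM, while the points of other classes lie between 2588 and 3457 CPM. The unnamed class, mostly cluster 5 with 9 macrophage markers raised, is at 2626 CPM in Tom- and 3021 CPM in Tom+.

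**Figure D5:**
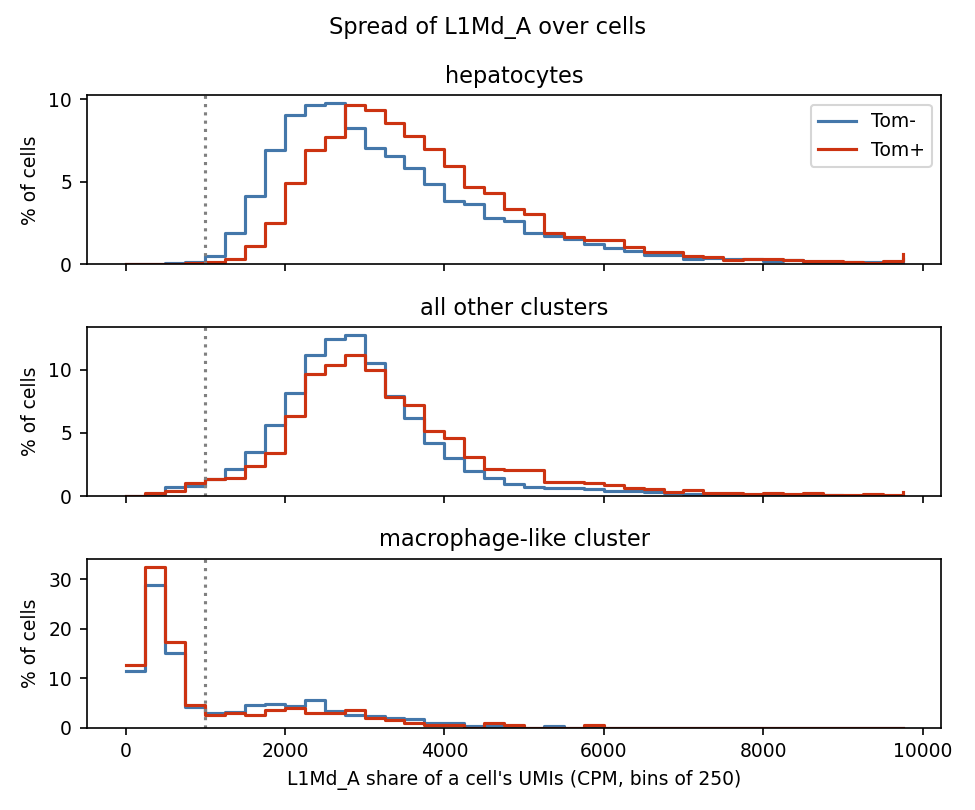
Distribution of the L1Md_A share (CPM) over single cells of the Tom- and Tom+ libraries, as the percent of cells per bin, in panels for hepatocytes, all other clusters and the macrophage-like cluster. The last bin also takes the cells beyond the axis, and the dotted line marks 1000 CPM. The hepatocyte medians are 2984 CPM in Tom- and 3468 CPM in Tom+, with broad overlap, and the macrophage-like panel has its peak under 500 CPM.

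The L1-poor cells of this cluster were not its most macrophage-like cells. Under the limit there were 302 of 507 Tom- (59.6%) and 132 of 197 Tom+ cells (67.0%), with L1Md_A at 409 and 396 CPM. Their 9 macrophage markers summed to 448 CPM in Tom- and 395 CPM in Tom+, against 1363 and 1357 CPM in the cells at or over the limit and 174 and 143 CPM in hepatocytes. Their Alb was 156911 and 157589 CPM, above the 117731 and 107670 CPM of hepatocytes. They had fewer UMIs, with medians of 18688 and 23392, and fewer genes, 3549 and 3994, than the cells over the limit, at 42110 and 40373 UMIs. Their mitochondrial fraction was 1.85% and 1.94%, against 1.23% and 1.47% in hepatocytes. The cells over the limit held 2282 and 2390 CPM of L1Md_A, below the 2994 and 3457 CPM of hepatocytes.

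At a finer resolution, again without L1Md_A, 458 of the 704 macrophage-like cells formed most of a cluster of 468 cells, 438 of them under the limit. It held 459 CPM of L1Md_A in Tom- and 491 CPM in Tom+. No marker of a non-parenchymal cell type and 1 hepatocyte marker were raised in it, and its leading genes were Mup17, Mup20, Atp5a1, Mup10 and mt-Co1, which are abundant hepatocyte and mitochondrial transcripts. Most of the remaining macrophage-like cells, 240 in number, joined a cluster of 1296 cells with 9 of 9 macrophage markers raised and L1Md_A at 2548 and 3037 CPM.

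Cells under 1000 CPM were rare elsewhere. In all, 482 of 20159 Tom- cells (2.39%) and 198 of 13378 Tom+ cells (1.48%) were under the limit. Outside the macrophage-like cluster these were 180 Tom- cells (0.916%) and 66 Tom+ cells (0.501%). Among hepatocytes they were 28 cells (0.265%) in Tom- and 8 cells (0.0818%) in Tom+. The L1-poor cells of other clusters had macrophage markers at 1305 CPM in Tom- and 1245 CPM in Tom+, endothelial markers at 694 and 511 CPM, and Alb at 144121 and 148652 CPM.

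The features that went with L1Md_A inside hepatocytes were low in L1-poor cells as well. Features and cells were both chosen by L1Md_A in these data, so this is a description and no separate support. Ccnl2 was at 36.4 CPM in L1-poor macrophage-like cells of Tom- and 22.9 CPM in those of Tom+, against 285 and 304 CPM in hepatocytes. Mlxipl was at 158 and 149 CPM against 1142 and 1314 CPM. Nr1i3 was at 18.3 and 20.9 CPM against 113 and 181 CPM. Of the 15 features highest in L1-high hepatocytes, 14 in Tom- and 15 in Tom+ were under 50% of the hepatocyte level in these cells, with medians of 25.3% and 19.8%. Of all features tested 25.0% and 27.9% were. In L1-poor cells of other clusters 14 and 13 were, with medians of 30.1% and 25.2%, beside 11.2% and 13.2% of all features. Those cells include the 28 Tom- and 8 Tom+ hepatocytes under the limit, which took part in the choice of features. The 15 features lowest in L1-high hepatocytes had medians of 125% and 120% of the hepatocyte level in L1-poor macrophage-like cells. In all cells under the limit 50.1% of Tom- and 54.0% of Tom+ features were lower than in other hepatocytes past 1.25-fold, and 11.8% and 10.6% were higher. In macrophage-like cells over the limit Ccnl2 was at 232 CPM in Tom- and 215 CPM in Tom+ and Mlxipl at 779 and 762 CPM, while Nr1i3 remained at 23.4 and 20.6 CPM.

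Genes known to control LINE-1 were followed as a fixed list of 40 features, of which 31 passed the minimum level in comparisons within hepatocytes. They comprise silencing factors (25), factors acting on its RNA or DNA (10) and sensors of nucleic acid (5). Between Tom+ and Tom- hepatocytes 1 of 31 was higher past 1.25-fold and 0 were lower, beside 7.15% and 2.21% of all features, with a median of -0.02. The higher gene was Rnaseh2c, a subunit of the RNase that removes RNA from RNA-DNA hybrids, at 160 CPM in Tom+ and 121 CPM in Tom- (log2 0.41). Ythdc1, a nuclear reader of methylated adenosine in RNA, had the largest difference among tested silencing genes, at 17.7 CPM in Tom+ and 14.3 CPM in Tom- (0.31), within 1.25-fold. Setdb1, a histone methyltransferase of heterochromatin, was at 23.1 CPM in Tom+ and 19.6 CPM in Tom- (0.24), and Trim28, the corepressor that recruits it, at 16.0 and 17.6 CPM (-0.13). Fam208a, which encodes the HUSH subunit TASOR, was at 45.1 and 45.6 CPM (-0.02), and Dnmt1, the maintenance DNA methyltransferase, at 11.2 and 11.4 CPM (-0.03). Among sensors Ifih1, the RNA sensor MDA5, had the lowest ratio, at 46.5 CPM in Tom+ and 55.6 CPM in Tom- (-0.26). Mov10, an RNA helicase that restricts LINE-1, was at 44.7 and 36.8 CPM (0.28).

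Along the lobule, 8 of 31 were higher and 1 lower centrally in Tom-, beside 25.7% and 9.41% of all features, and 11 were higher and 0 lower in Tom+, beside 32.0% and 8.8%. The medians of the list were 0.12 and 0.21, beside 0.15 and 0.21 for all features. Dnmt3a, a de novo DNA methyltransferase, had the highest ratio, 0.83 in Tom- (33.9 against 19.1 CPM) and 0.98 in Tom+ (33.4 against 16.9 CPM). Ythdc1 differed by 0.50 in Tom- and 0.53 in Tom+. Between deepest and shallowest quintiles 16 of 31 were lower in Tom- and 12 in Tom+, beside 41.6% and 30.4% of all features, and 1 was higher in each, beside 6.45% and 1.22%. The medians were -0.34 and -0.28, beside -0.23 and -0.19. Ythdc1 had the lowest ratio, from 33.9 to 7.40 CPM in Tom- (-2.20) and from 32.6 to 12.2 CPM in Tom+ (-1.42).

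With mitochondrial fraction 12 of 31 were lower and 1 higher in each library, beside 25.7% lower and 3.74% higher of all features in Tom- and 26.4% and 4.02% in Tom+. Those lower were led by Ythdc1 (-0.79), Fam208a (-0.58) and Atrx (-0.58), a chromatin remodeller, in Tom-. L1-high and L1-low hepatocytes of the same position and depth were compared over the 21 members at 20 CPM or more. Of these 21, 13 were higher past 1.25-fold and 0 were lower, with a median of 0.43. Of all features 37.0% were higher and 3.15% lower, with a median of 0.20. Most of the 21 members were silencing genes, and so were the 4 highest. These were Fam208a at 57.8 CPM in L1-high and 36.0 CPM in L1-low cells (0.73), Atrx at 57.8 and 37.7 CPM (0.64), Setdb1 at 26.0 and 17.9 CPM (0.58) and Cbx5, a heterochromatin protein, at 26.0 and 18.5 CPM (0.55). Another HUSH subunit, Mphosph8, followed at 0.52, while the HUSH subunit Pphln1, at 0.25, was within 1.25-fold. Adar, an RNA-editing enzyme, at 54.3 and 40.2 CPM (0.46), and Mavs, the adaptor of RNA sensors, at 85.4 and 62.9 CPM (0.46), were higher as well. The restriction genes Rnaseh2c (-0.10), Mov10 (-0.02) and Zc3hav1 (0.01) and the sensor Ifih1 (0.02) were within 1.25-fold. Members under 20 CPM in hepatocytes were outside that count. Among them Ythdc1 had a larger ratio than any member named above, at 22.8 CPM in L1-high and 11.4 CPM in L1-low cells (1.04, higher in 30 of 30 combinations of library, position and depth). Sirt6 (0.63), Apobec1 (0.63) and Rb1 (0.59) were each higher in 29 of 30. Trim28 (0.02) and Rnaseh2a (0.06) differed little and were higher in 17 and 18 of 30. Cbx3, a heterochromatin protein, was at 15.7 CPM in L1-high and 17.6 CPM in L1-low cells (-0.20).

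Interferon and cycle classes changed the list in their own way. Between the outer interferon quintiles 2 of 31 were higher and 1 lower in Tom-, beside 0.718% and 2.95% of all features, and 5 were higher and 0 lower in Tom+, beside 1.0% and 0.483%. Samhd1, a nucleotide phosphohydrolase that restricts reverse transcription, differed by 0.51 and 0.48 and Ifih1 by 0.34 and 0.50. The quintiles were ranked by interferon genes, so a rise of members that go with these genes is no separate result on LINE-1 control. In the interferon-led cluster Samhd1 was at 113 CPM in Tom- and 149 CPM in Tom+, against 18.8 and 18.5 CPM in hepatocytes. In the cell-cycle-led cluster Uhrf1, the partner of Dnmt1 in replicating cells, was at 17.6 and 15.1 CPM, against 0.510 and 0.343 CPM in hepatocytes. In these clusters, and in leukocyte-like and cholangiocyte-like cells, some members reached the minimum level only in the class where they were high, so members are not counted there. Between the outer quintiles of cycle share 1 of 31 was higher and 0 lower in each library. Of all features 3.44% were higher and 0.0256% lower in Tom-, and 1.78% and 0.329% in Tom+, so the list was near the share of all features. The higher member was Ythdc1 (0.56) in Tom- and Dnmt1 (0.37) in Tom+.

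In the macrophage-like class, most of whose cells were L1-poor, 16 of 31 were lower and 1 higher in Tom-. In Tom+ 20 were lower and 0 higher. Of all features 38.3% in Tom- and 50.1% in Tom+ were lower, and 3.98% and 5.58% were higher. Rb1, the retinoblastoma gene, was at 10.1 CPM against 17.7 CPM in Tom- (-0.80) and at 7.35 against 17.0 CPM in Tom+ (-1.19). Stellate-like cells had 9 members higher in Tom- and 8 in Tom+, beside 14.3% and 11.5% of features, and 0 lower, beside 3.15% and 1.63%. Samhd1 in them was at 53.3 CPM in Tom- and 47.3 CPM in Tom+, the latter 1.35 above hepatocytes on the log2 scale. The part that the raised macrophage markers of this class have in these values was not tested. In leukocyte-like cells Apobec3, a cytidine deaminase that restricts retroelements, was at 21.5 and 17.6 CPM against 0.832 and 0.604 CPM in hepatocytes. It passed the minimum level in that class and not in hepatocytes, so its value is a description and is not counted. Endothelial-like cells had 3 higher in Tom- and 1 in Tom+, beside 7.11% and 6.26%, and 0 and 1 lower, beside 2.4% and 3.62%. In the cluster of few genes 4 were higher and 0 lower in Tom-, beside 7.76% and 0.0629%, and 1 higher and 1 lower in Tom+, beside 3.34% and 4.47%. L1Md_A was at or below the level of hepatocytes in the stellate-like and endothelial-like sums of both libraries.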

How the data were processed

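The authors hybridised the mouse probe set of the 10x fixed-RNA assay, with added tdTomato probes, sequenced the libraries and counted UMIs with Cell Ranger 7.2.0 on mm10. The deposited matrices hold raw counts of UMIs per feature and cell for 1 Tom- and 1 Tom+ library, with no normalization. A probe for a repeat can be ligated on many copies and on host transcripts, so the count of L1Md_A cannot be assigned to copies.

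The study's own filters were applied: mitochondrial fraction at most 0.05, 2000 to 10000 genes and at most 100000 UMIs. Both libraries were clustered together without integration and without the 3 custom features (scanpy 1.11.5, 2000 variable genes, 30 components, 20 neighbours, Leiden resolution 0.8 with leidenalg 0.10.2, 1.2 as an alternative), giving 19 clusters. Hepatocytes were clusters with a median gene number of at least 0.75 times that of all cells, with Ptprc, Dcn and Pecam1 under 2.5 times the median cluster, and not named as another type. A name needed 3 markers raised at 5 CPM and 1.5-fold, more than any other type, and 1 or more in the leading 10 genes (ranked by fold, 20 CPM minimum). These limits were set after clusters had been seen. No doublet caller was run, and leaving out the 10% deepest cells was an alternative.

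Sums of UMIs over a class in 1 library are expressed as CPM, with an exact Poisson interval, and compared as log2 ratios with exact conditional intervals at 95%. Features at 10 CPM or more in either sum were compared with a pseudocount of 0.5 UMIs and counted as higher or lower past 1.25-fold. Quintiles and terciles were cut over the hepatocytes of both libraries together, except those of tdTomato, which were cut within each. Features in L1-high and L1-low terciles were averaged over 30 strata. With 1 library per group no paired or unpaired test was possible. The code was tested on simulated data.

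Genes were named by a rule: the other custom features, the 5 features most and the 5 least correlated with L1Md_A in each set of sums, and the LINE-1 control list. The 15 highest and 15 lowest features of the L1-high and L1-low split were added after the data were seen, as were the mitochondrial quintiles and the limit of 1000 CPM. The element and the lists were chosen with earlier results of these data known. Of the lists, 28 of 29 cell cycle, 27 of 29 interferon and 40 of 45 LINE-1 control names were features, and 4 of the 5 missing control names are other names of listed genes. Versions were Python 3.11.15, numpy 2.4.6, scipy 1.17.1, pandas 2.3.3 and matplotlib 3.10.9.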

Additional observations from a re-analysis of the deposited data

Results flagged for a closer look

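Leukocyte-like cells differed from hepatocytes in opposite directions in the libraries. The log2 ratio of the L1Md_A share, leukocyte-like over hepatocytes, was 0.015 (-0.02 to 0.04) in Tom-, from 80 cells, and -0.09 (-0.12 to -0.05) in Tom+, from 51 cells. The Tom- interval holds 0. The directions were no longer opposite with the mean of the share over cells, at -0.017 and -0.12, or without the 10% deepest cells, at -0.033 and -0.034. Each value comes from 1 library, and the difference between the libraries was not tested.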

How the results depend on the processing

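All values are log2 ratios of the L1Md_A share. Ratios of outer bins and of classes to hepatocytes are means over both libraries. As reported they were 0.21 for Tom+ over Tom-, 0.17 matched, 0.27 central over portal, -0.75 for depth, 0.23 for cell cycle, -0.20 for interferon, -0.57 for mitochondrial fraction and 0.10 for tdTomato in Tom+. For classes they were -0.22 endothelial-like, -1.22 macrophage-like, -0.12 stellate-like, -0.04 leukocyte-like and -0.15 in the cluster of few genes. A value counted as moved when it left its counting interval, which is narrow here, so most moves were small.

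The sign turned in tdTomato bins of Tom+ alone: to -0.0041 with the mean of the share over cells, -0.18 in hepatocytes of 20000 to 40000 UMIs and -0.058 ranked within deciles of depth. Median-of-ratios scaling gave 0.17 for Tom+ over Tom-, 0.10 (lobule), -0.54 (depth), 0.14 (cycle), -0.16 (interferon), -0.42 (mitochondrial), 0.065 (tdTomato), -0.19 (endothelial-like), -0.95 (macrophage-like), -0.15 (stellate-like) and -0.12 (few genes). The mean over cells gave 0.17, 0.17 matched, 0.22, -0.77, 0.20, -0.19 and -0.70 for the first comparisons in the order above, and -0.26, -1.62, -0.087, -0.068 and -0.25 for the classes. With 3000 to 8000 genes the values that moved were 0.20 for Tom+ over Tom-, 0.12 for tdTomato, -0.23 endothelial-like, -1.18 macrophage-like and -0.14 stellate-like. Without the 10% deepest cells they were 0.18, 0.16 matched, 0.26, -0.68, 0.21, -0.18, -0.66 and 0.017 in the same order, then -0.23 endothelial-like, -1.35 macrophage-like, -0.11 stellate-like and -0.20 for few genes.

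In hepatocytes of 20000 to 40000 UMIs they were 0.22 for Tom+ over Tom-, 0.21 for lobule, 0.17 for cycle, -0.13 for interferon and -0.73 for mitochondrial fraction. Adding clusters of few genes gave 0.22 matched, 0.26 for lobule, -0.57 for depth, 0.20 for cycle, -0.17 for interferon, -0.51 for mitochondrial fraction and 0.11 for tdTomato. Resolution 1.2 gave -0.18 endothelial-like, -0.16 stellate-like and -2.76 for few genes, which is another set of 468 cells, the L1-poor ones, since the large cluster of few genes there passed the Ptprc limit. By the naming rule it had no leukocyte-like, macrophage-like or interferon-led cluster, although it had an unnamed cluster of 1296 cells with 9 macrophage markers raised and a hepatocyte cluster with 25 interferon genes raised. The alternatives that follow were chosen after seeing the data. Counting macrophage-like and cholangiocyte-like clusters as hepatocytes gave 0.22, 0.19 matched, 0.28, -0.68, 0.24, -0.22, -0.63 and 0.12 in the order above, with -0.20 endothelial-like, -0.10 stellate-like and -0.13 for few genes. Without the cluster mostly of Tom+ cells Tom+ over Tom- was 0.15, and 0.14 matched. Matched on mitochondrial fraction and depth it was 0.33. Ranked within deciles of depth, lobule was 0.29, cycle 0.18, interferon -0.16 and mitochondrial fraction -0.55. The endothelial-like cluster of few genes was at -0.70 and that of many genes at -0.19. Leaving out barcodes found in both libraries moved none of these.

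Of the comparisons above 75 values moved, 3 changed sign and 26 stayed within their interval. For cholangiocyte-like, cell-cycle-led and interferon-led cells a further 10 moved and 9 stayed, all below 0 as means over both libraries, and the causes were not tested. No paired analysis was possible because there is a single library on each side, which leaves no replicate to omit. Counting error on the sums is small, but a hepatocyte holds a median of only 3 cycle UMIs, and the separate p16 entry has few UMIs. The results are also limited by 1 library per group, the unknown number of mice, the unknown target of the L1Md_A probes and hepatocyte RNA in every class.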
